A study of Mus musculus with 81 samples.

Results

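CA1 and CA3 pyramidal neurons (PNs) were compared within disomic (2N) mice. The comparison used the 12 of 81 libraries that came from 2N mice of dams on the normal choline diet, 6 of CA1 PNs and 6 of CA3 PNs, with 1 library of each population from each of the same 6 mice. The study bred Ts65Dn (Ts) dams, whose Ts offspring carry an extra copy of part of mouse chromosome 16 (Mmu16), to F1 sires of C57Bl/6J Eicher × C3H/HeSnJ, and compared Ts with 2N male offspring at 6 MO. Dams received 1.1 g/kg choline chloride (ChN) or 5.0 g/kg (ChP) through gestation and lactation, and all offspring had the normal diet after weaning. Groups of densely packed neurons, not single cells, were cut by laser capture microdissection from Nissl-stained sections of the rostral hippocampus and total RNA was sequenced. All 12 libraries were thus taken as 2N males on ChN at 6 MO. The labels or the data go against this for 2 of them. The CA3 PN library of mouse 15-145 carries a Ts label while its CA1 PN and dentate granule cell (DGC) libraries are labelled 2N, and it was taken as 2N. The CA1 PN library of mouse 17-154 is labelled 2N but held the triplicated genes at the level of Ts libraries, as given below. In 1 2N mouse, which is not named, all populations were taken a second time from adjacent sections after a CA1 PN library had failed. The 14 libraries of 7 2N mice on ChP, none of which is among the 12, served as a second, separate comparison of the same kind.

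CA1 and CA3 PNs are the principal excitatory neurons of successive stages of the hippocampal circuit. CA3 PNs receive the mossy fibers of DGCs and excite each other through recurrent collaterals, and their Schaffer collaterals excite CA1 PNs, which send the output of the hippocampus to the subiculum and cortex. CA2 is a narrow field between them whose PNs carry their own markers, among them Amigo2, Rgs14 and Pcp4. In the laser-captured material a lower level can come from fewer neurons of a type or from less RNA per neuron, which cannot be told apart.

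The promoters of 4 genes on which the results below turn are shown first, as RefSeq gives them in GRCm38.p6, each from 250 bases before to 50 bases after the start of the gene on its own strand. They are Fibcd1, a CA1 marker, Bok and Nectin3, both CA3 markers, and Nr4a1, the immediate early gene with the largest difference among those called. Capitals mark, on either strand, the half-site of the cyclic AMP response element (TGACG or CGTCA), the GC box (GGGCGG or CCGCCC) and the octamer bound by POU factors (ATGCAAAT or ATTTGCAT). The end bases of a half-site and a GC box may overlap.
Fibcd1, chr2:31845956-31846255, minus strand: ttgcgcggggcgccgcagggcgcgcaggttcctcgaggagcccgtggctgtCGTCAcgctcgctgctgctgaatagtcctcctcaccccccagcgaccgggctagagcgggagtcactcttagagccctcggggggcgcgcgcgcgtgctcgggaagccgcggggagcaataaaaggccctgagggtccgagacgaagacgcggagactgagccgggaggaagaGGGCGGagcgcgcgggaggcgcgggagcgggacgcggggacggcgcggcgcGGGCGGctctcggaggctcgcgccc
Bok, chr1:93685325-93685624, plus strand: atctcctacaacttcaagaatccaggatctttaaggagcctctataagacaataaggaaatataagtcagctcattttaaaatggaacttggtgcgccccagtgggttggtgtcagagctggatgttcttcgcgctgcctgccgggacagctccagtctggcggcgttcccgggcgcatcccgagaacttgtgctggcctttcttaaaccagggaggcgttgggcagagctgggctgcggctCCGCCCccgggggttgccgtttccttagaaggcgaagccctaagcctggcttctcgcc
Nectin3, chr16:46496918-46497217, minus strand: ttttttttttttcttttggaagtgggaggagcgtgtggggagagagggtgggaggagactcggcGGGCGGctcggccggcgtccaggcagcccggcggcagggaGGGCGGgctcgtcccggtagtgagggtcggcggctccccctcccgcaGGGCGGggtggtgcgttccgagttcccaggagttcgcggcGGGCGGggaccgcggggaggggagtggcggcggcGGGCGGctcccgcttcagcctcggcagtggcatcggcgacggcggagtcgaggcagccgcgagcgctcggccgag
Nr4a1, chr15:101266596-101266895, plus strand: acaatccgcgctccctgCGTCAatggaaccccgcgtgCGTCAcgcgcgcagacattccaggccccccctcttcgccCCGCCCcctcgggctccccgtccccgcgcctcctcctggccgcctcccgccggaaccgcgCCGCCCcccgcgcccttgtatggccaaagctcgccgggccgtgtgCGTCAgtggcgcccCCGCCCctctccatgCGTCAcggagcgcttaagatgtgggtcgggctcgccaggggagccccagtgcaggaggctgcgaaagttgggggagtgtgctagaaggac
The Nr4a1 promoter held 4 half-sites and 3 GC boxes, the Fibcd1 promoter 1 and 2, and those of Bok and Nectin3 no half-site with 1 and 5 GC boxes. None of the 4 held an octamer. Of all 32851 promoters in the table, 20.8% held a half-site, 35.7% a GC box and 1.74% an octamer, and among the 12615 promoters of genes tested below these shares were 31.1%, 62.5% and 1.17%. A half-site was found in 27.0% of 1405 promoters of genes higher in CA1 PNs and in 25.5% of 1497 promoters of genes higher in CA3 PNs. The corresponding shares were 60.7% and 62.5% for the GC box and 1.49% and 1.40% for the octamer.

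The 6 CA1 PN libraries held 786648 to 1486710 expected counts each, with a median of 959775, whereas the CA3 PN libraries held 625249 to 4744036 with a median of 1791749, and the CA3 PN library was the deeper one in 5 of 6 mice. Levels are given as CPM, read counts relative to the library total scaled with TMM, and the LFC is the log2 fold change of CA1 PNs minus CA3 PNs, so that a positive value is a higher level in CA1 PNs. It was fitted by edgeR with the mouse as a block. Its standard error (SE) is the size of the LFC divided by the square root of the F of the test. For genes with few or no counts in one population this SE understates the uncertainty, and counting intervals are given for some of them. A gene is called with a Benjamini-Hochberg adjusted p under 0.05 over all genes tested. Of 7 marker genes, 4 mark CA1 PNs. Fibcd1, a receptor for acetylated structures, had 1.12, 409 and 470 CPM as the lowest, median and highest CA1 PN library and 0 to 3.08 CPM in CA3 PNs. Wfs1, an endoplasmic reticulum protein, had 6.74, 728 and 842 CPM in CA1 PNs and 13.3 to 39.6 CPM in CA3 PNs. Pou3f1, a POU transcription factor, had 0, 172 and 219 CPM in CA1 PNs and 0 to 1.75 CPM in CA3 PNs, and Mpped1 had 7.87, 215 and 232 CPM against 3.08 to 10 CPM. For each of these genes the lowest CA1 PN library was that of mouse 17-21, which lay within the range of CA3 PNs or below it, while the other 5 did not overlap with CA3 PNs. All 4 were called (Fibcd1 LFC 7.89 ± 0.70, Wfs1 4.33 ± 0.91, Pou3f1 7.98 ± 0.66 and Mpped1 4.52 ± 0.67). Without the mice 17-21 and 17-154 the LFC of Wfs1, Pou3f1 and Mpped1 was 5.02 ± 0.14, 9.86 ± 0.34 and 5.24 ± 0.20. Pou3f1 was then at 0 to 0.514 CPM in CA3 PNs, so the size of its LFC is uncertain. The adjusted p of Wfs1 was 0.026, and between 0.087 and 0.096 without any one mouse other than 17-21.

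**Figure D1:**
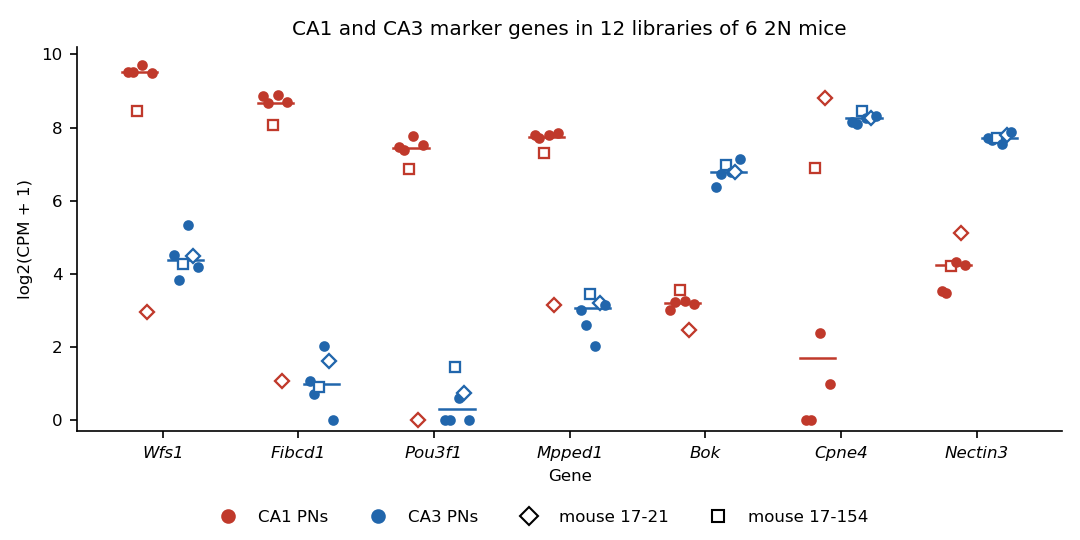
The 7 marker genes in each of the 12 libraries, as log2(CPM + 1), with CA1 PNs in red, CA3 PNs in blue and a line at the median of 6 libraries. Open diamonds are mouse 17-21, whose CA1 PN library lies within or below the CA3 PN range for Wfs1, Fibcd1, Pou3f1 and Mpped1 and above it for Cpne4, and open squares are mouse 17-154.

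The CA3 markers split in the same way. Bok, a BCL2 family member, had 81.7, 109 and 140 CPM in CA3 PNs and 4.50 to 10.9 CPM in CA1 PNs, and Nectin3, a synaptic adhesion protein, had 188, 210 and 235 CPM against 10.2 to 33.7 CPM, with no overlap for either gene (LFC -3.79 ± 0.18 and -3.57 ± 0.18). Cpne4, a calcium-dependent phospholipid-binding protein, had 276, 308 and 352 CPM in CA3 PNs, and in CA1 PNs it had 450 CPM in mouse 17-21, 118 CPM in mouse 17-154 and 0 to 4.28 CPM in the other 4 (LFC -3.53 ± 1.41, adjusted p = 0.16, with 6 mice and -7.76 ± 0.26 with 4). The CA2 marker Amigo2 had 419 and 108 CPM in the CA1 PN libraries of 17-21 and 17-154, 0 to 17.0 CPM in the other CA1 PN libraries and 3.15 to 12.1 CPM in CA3 PNs, and was called neither with 6 mice (LFC 2.15) nor with 4 (LFC -1.33 ± 0.84). Over 7 CA2 markers the mean log2 CPM was 7.88 in 17-21 and 6.05 in 17-154, against 1.58 to 3.08 in the other 4 CA1 PN libraries and 2.59 to 3.24 in CA3 PNs. Over 7 CA1 markers it was 2.59 in 17-21 and 7.0 in 17-154, against up to 7.79 in the others and 2.11 to 2.56 in CA3 PNs. Over 5 CA3 markers it was 5.14 in 17-21 and 4.20 in 17-154, against 1.99 to 2.29 in the others and up to 7.33 in CA3 PNs, where the median was 7.26. The library labelled CA1 of mouse 17-21 thus lacked the CA1 levels of Fibcd1, Wfs1, Pou3f1 and Mpped1 and held CA2 markers. Spink8, another of the 7 CA1 markers, did not fall there. The CA3 markers of this library lay between both populations on average and were not all high, with Cpne4 above the CA3 PN range, Nectin3 at 33.7 CPM below it and Bok at 4.50 CPM the lowest of all 12 libraries. That of 17-154 held both CA1 and CA2 markers, with CA3 markers at a mean that was likewise between the populations. The latter also went against its 2N label in the 67 triplicated Mmu16 genes tested, whose mean log2 CPM was 5.42, within the 5.24 to 5.45 of CA1 PN libraries of Ts mice and above the 4.67 to 5.00 of the other CA1 PN libraries here, against 4.72 in CA3 PNs and 4.88 in DGCs from the same animal. Whether it was exchanged or mixed with another library was not tested. Of the 67 genes, 12 were called higher in CA1 PNs and 5 in CA3 PNs with 6 mice, and 7 and 13 without 17-21 and 17-154. Over all genes tested, 10.4% were called in each direction with 6 mice. Without 17-21 and 17-154, 12.4% were higher in CA1 PNs and 14.0% in CA3 PNs. The CA3 PN library of 15-145 had 4.91 over these genes, against 5.22 to 5.34 in Ts CA3 PNs. Values are of all 6 mice unless given for 4 mice, which leave out 17-21 and 17-154. The counts of each gene list are given for both, and the LFC in 4 mice of a gene described with its values where its call changed or its fold moved by over 1.5 times.

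Dentate markers had a mean log2 CPM of 1.53 to 2.33 in the 12 libraries and 8.10 to 8.42 in DGCs, and excitatory markers 8.84 to 9.16 in CA1 PNs and 9.17 to 9.45 in CA3 PNs. Markers of other cells were present at lower levels. Oligodendrocyte markers had a mean of 2.59 to 3.50 in CA1 PNs and 3.73 to 4.47 in CA3 PNs, with 5 of 10 called higher in CA3 PNs with 6 and with 4 mice, among them Mobp of myelin (LFC -1.28 ± 0.22). Astrocyte markers had 3.90 to 5.24 and 4.86 to 5.42, with 4 of 11 called higher in CA3 PNs and 0 in CA1 PNs (3 and 0 in 4 mice). Interneuron markers had 4.46 to 4.93 and 4.45 to 5.21, with 2 of 14 called in each direction (1 higher in CA1 PNs and 3 in CA3 PNs in 4 mice). Of 9 choroid plexus and fibroblast markers, only Kl and Enpp2 were among the genes tested, with a mean of 3.47 to 6.19 and 3.91 to 4.37. In CA1 PNs the 3.47 was that of 17-21, and the other libraries had 5.77 to 6.19. Whether these 2 transcripts came from choroid plexus or fibroblast cells was not tested. Both were called higher in CA1 PNs with 6 and with 4 mice. Of 10 vascular markers tested, 1 was called higher in CA1 PNs and 2 in CA3 PNs (1 and 0 in 4 mice).

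The 14042 genes tested exceeded 1 CPM in 6 or more libraries, and 2932 (20.9%) were called, 1467 (10.4%) higher in CA1 PNs and 1465 (10.4%) higher in CA3 PNs. The median size of the LFC was 1.06 among the former and 0.97 among the latter, and 134 and 152 genes differed by more than 8-fold. All 6 CA1 PN libraries lay above all 6 CA3 PN libraries for 681 genes (4.85%), and the reverse held for 873 (6.22%). Most called genes named below were chosen by the size of their LFC in these same libraries. A lack of overlap among them is thus a description only. With over 1 CPM in every library of one population and in none of the other, there were 26 genes for CA1 PNs and 22 for CA3 PNs. In 4 mice 3712 of the same genes (26.4%) were called, 1747 higher in CA1 PNs (12.4%) and 1965 in CA3 PNs (14.0%), including 1274 of the 1467 (86.8%, and 72.9% of the 1747) and 1338 of the 1465 (91.3%, and 68.1% of the 1965). Scaled with library totals in place of TMM, the 3760 genes called in 4 mice comprised 2090 higher in CA1 PNs and 1670 in CA3 PNs, a share of 55.6% against 47.1% with TMM. The biological coefficient of variation was 0.202 with 6 mice and 0.136 with 4.

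In 2N mice on ChP, 3324 of 13901 genes (23.9%) were called, 1580 higher in CA1 PNs (11.4%) and 1744 in CA3 PNs (12.5%). With library totals the 3371 genes called there comprised 1968 higher in CA1 PNs and 1403 in CA3 PNs, a share of 58.4% against 47.5% with TMM. Of the 2932 genes, 2278 were called in the same direction on ChP, 1094 of those higher in CA1 PNs (74.6%, and 70.3% of the ChP calls among genes tested on both diets) and 1184 of those higher in CA3 PNs (80.8% and 68.2%). Calls in opposite directions numbered 0, and the LFC had the same sign for 2867. On ChP, 3 of the 7 CA1 PN libraries (15-334, 15-336 and 16-90) also held CA2 markers, at a mean log2 CPM of 6.12, 7.65 and 7.28, and without these mice 4159 genes were called. The difference between the diets in the LFC was tested in 1 fit of 26 libraries, in which 0 of 16129 genes were called and 443 had an unadjusted p under 0.05.

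**Figure D2:**
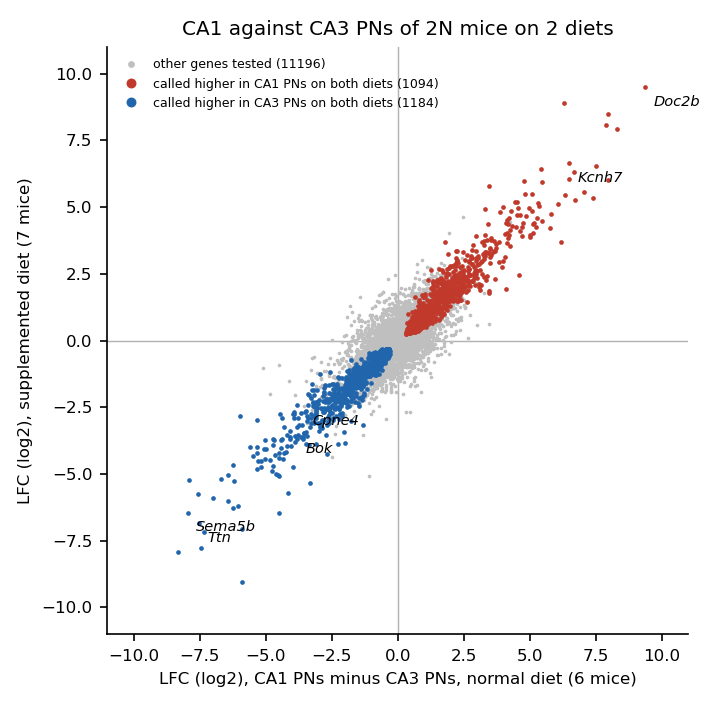
LFC (log2, CA1 PNs minus CA3 PNs) in 6 mice on ChN, x axis, against 7 mice on ChP, y axis, for each gene tested on both diets. Genes called in the same direction on both diets are colored (1094 higher in CA1 PNs in red, 1184 higher in CA3 PNs in blue), and the extremes on both axes include Doc2b, Sema5b and Ttn.

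The genes with the largest differences in favor of CA1 PNs included, by the rule given in the methods, Doc2b, Pou3f1, Spink8, Fibcd1, Ror1, Spon1, Lefty1, Gpr161 and Kcnh7. Doc2b, a calcium sensor for vesicle fusion, had 7.87, 164 and 235 CPM as lowest, median and highest CA1 PN library, and 2 counts in all CA3 PN libraries together against 934 in CA1 PNs (LFC 9.38 ± 0.33, adjusted p = 4.2e-15). Pooled over libraries this is a ratio of 954 (95% exact counting interval 263 to 7890). DGCs of the same mice had a mean of 239 CPM of Doc2b. Spink8, a serine protease inhibitor, had 25.0, 36.4 and 65.2 CPM in CA1 PNs and 1 count in CA3 PNs (pooled ratio 531, interval 94.5 to 21100). It is in the list of CA1 markers too, but unlike Fibcd1, Wfs1, Pou3f1 and Mpped1 it did not fall in mouse 17-21. All 6 CA1 PN libraries were above CA3 PNs (LFC 7.96, and 7.37 ± 0.56 in 4 mice).

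Spon1, an extracellular matrix protein, had 132, 183 and 251 CPM in CA1 PNs and 0 to 3.81 CPM in CA3 PNs (LFC 7.06 ± 0.41, adjusted p = 2.5e-06), with no overlap. Kcnh7, an ether-a-go-go related potassium channel subunit, had 28.1, 453 and 550 CPM against 3.15 to 5.66 CPM (LFC 6.50 ± 0.40, adjusted p = 1.7e-05), and its lowest CA1 PN library was again that of 17-21. Gpr161, an orphan receptor of primary cilia, had 4.50, 287 and 371 CPM against 0 to 6.99 CPM (LFC 6.68 ± 0.79 with 6 mice and 8.07 ± 0.24 with 4). Lefty1, a TGF-beta family antagonist, had 15.7 to 33.2 CPM in CA1 PNs and 2 counts in CA3 PNs (pooled ratio 156, interval 42.5 to 1300), and Ror1, a Wnt5a receptor, had 1.12 to 38.9 CPM and 1 count (pooled ratio 298, interval 52.7 to 11900). All of these genes were also called higher in CA1 PNs in 4 mice and on ChP, where their LFC ran from 5.27 (Lefty1) to 9.50 (Doc2b).

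In favor of CA3 PNs the largest differences were those of Ifi203, Sema5b, Ttn, Cpne9, Pcsk5, Prkcd, Ptpn14, Kcnf1, Cyp26b1 and Iyd. None of the 10 overlapped between populations, which their choice by the size of the LFC favored. Over all genes tested, 6.22% had every CA3 PN library above every CA1 PN library. Ttn, which encodes the sarcomere protein titin, had 437, 565 and 863 CPM in CA3 PNs and 0 to 13.5 CPM in CA1 PNs (LFC -7.53 ± 0.50, adjusted p = 0.00011). Prkcd, protein kinase C delta, had 164, 287 and 482 CPM against 0 to 11.2 CPM (LFC -6.99 ± 0.42, adjusted p = 8.5e-06). Cpne9, a relative of Cpne4, had 142, 164 and 240 CPM against 0 to 3.37 CPM (LFC -7.44 ± 0.29, adjusted p = 2.9e-14). For Ttn, Prkcd and Cpne9 the highest CA1 PN library was that of 17-21. Sema5b, a transmembrane semaphorin, had 65.8, 92.1 and 131 CPM in CA3 PNs and 2 counts in CA1 PNs against 1220 (pooled ratio 299, interval 82.5 to 2470). Kcnf1, an electrically silent Kv subunit, had 42.5, 96.3 and 214 CPM against 0 to 2.37 CPM (LFC -6.43 ± 0.29, adjusted p = 1.3e-13). In 4 mice the LFC was -9.18 ± 0.23 for Ttn, -8.11 ± 0.30 for Prkcd, -8.84 ± 0.37 for Cpne9 and -5.79 ± 0.33 for Kcnf1, larger in size than with 6 mice for the first 3 and smaller for Kcnf1.

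Cyp26b1, which degrades retinoic acid, had 38.1, 70.3 and 120 CPM in CA3 PNs and 0 to 2.73 CPM in CA1 PNs (LFC -6.23 ± 0.33, and -7.46 ± 0.49 in 4 mice). Iyd, the iodotyrosine deiodinase, had 56.7 to 81.8 CPM against 0 to 5.62 CPM (LFC -6.05 ± 0.43 with 6 mice and -9.68 ± 0.59 with 4). In 4 mice it was at 0 in every CA1 PN library, so the LFC there is no measured fold. The tyrosine phosphatase Ptpn14 had 59.6 to 84.4 CPM against 0 to 2.04 CPM (LFC -6.67, and -7.83 ± 0.45 in 4 mice). Pcsk5, a proprotein convertase, had 31.1 to 49.6 CPM in CA3 PNs and 1 count in CA1 PNs (pooled ratio 255, interval 45.6 to 10100), with a mean of 56.3 CPM in DGCs. Ifi203, an interferon-activated gene, was at 0 in every CA1 PN library and at 20.8 to 29.9 CPM in CA3 PNs, at least 52-fold higher there against a floor of 3 counts over the 6 libraries. Its close paralogs make its counts uncertain. All 10 genes were called higher in CA3 PNs in 4 mice and on ChP too.

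Transcription factors were compared as a list of 57 tested genes known from hippocampal neurons, of which 20 were higher in CA1 PNs and 6 in CA3 PNs, with a median LFC of 0.10 against 0.02 over all genes tested. In 4 mice 20 and 12 were called and the median was -0.02 against 0.001 over all genes, so that the balance of the list depended on 17-21 and 17-154. Beside Pou3f1, Bcl11b (Ctip2), which marks deep-layer cortical and CA1 neurons, had 347, 546 and 634 CPM in CA1 PNs and 28.3, 39.9 and 52.0 CPM in CA3 PNs (LFC 3.73 ± 0.17, adjusted p = 2.6e-11). DGCs had a mean of 462 CPM of Bcl11b, within the range of CA1 PNs. Trps1, a GATA-type repressor, went the other way, with 17.6, 23.0 and 45.0 CPM in CA1 PNs and 403, 461 and 511 CPM in CA3 PNs (LFC -4.17 ± 0.15, adjusted p = 5.3e-15). Neither gene overlapped, and mouse 17-21 did not stand apart from the other mice in Bcl11b. The 2 most abundant members that were not called were Zbtb20, a factor required for hippocampal identity (LFC 0.26 ± 0.13, adjusted p = 0.18), and Neurod6, a bHLH factor of pyramidal neurons (LFC -0.20 ± 0.13, adjusted p = 0.32), and the latter was called higher in CA3 PNs in 4 mice (LFC -0.28 ± 0.11, adjusted p = 0.041).

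**Figure D3:**
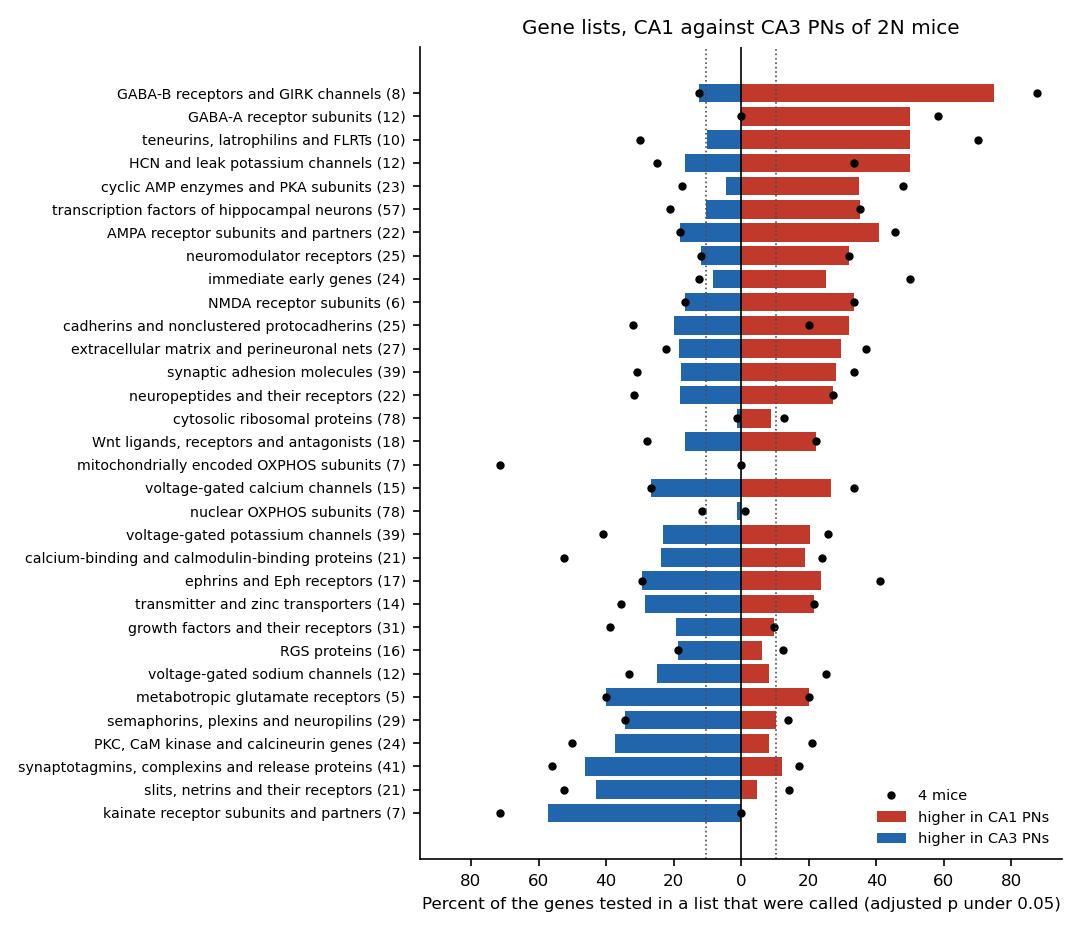
Percent of the tested genes of each list (number in brackets) that were called higher in CA1 PNs, red bars to the right, or in CA3 PNs, blue bars to the left, with 6 mice, and black points for 4 mice. Dotted lines mark 10.4% in each direction, the share among all 14042 genes with 6 mice, and the lists run from those with more genes higher in CA1 PNs at the top to kainate receptors, with 4 of 7 genes higher in CA3 PNs, at the bottom.

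Glutamate receptors of the ionotropic kinds differed in direction. Of 22 AMPA receptor subunits and partners, 9 were higher in CA1 PNs and 4 in CA3 PNs (median LFC 0.41), and 10 and 4 in 4 mice. Of the 4 pore-forming subunits, 2 were called and are named here outside the rule for named genes, Gria1 (LFC 0.70 ± 0.12, adjusted p = 8.6e-05) and Gria2 (LFC 0.37 ± 0.12, adjusted p = 0.031). The adjusted p of Gria2 lay between 0.072 and 0.16 without any one mouse other than 17-21. TPM, which are scaled to transcript length, allow genes to be ordered within a population, and no difference between populations is read from them because their scale differs from that of the LFC. In CA1 PNs Gria1 and Gria2 had a mean of 363 ± 133 and 358 ± 80.1 TPM (SD, n = 6), and in CA3 PNs of 251 ± 93.4 and 338 ± 117 TPM, within the spread of each other in both. The SDs of TPM here and below are between libraries, and the order of genes within each library was not tested. Gria4 was far lower, at 9.13 ± 3.47 TPM in CA1 PNs and 12.7 ± 6.15 TPM in CA3 PNs. Some of the partners had larger LFCs. Gsg1l, a claudin-like auxiliary subunit, had 4.50, 18.5 and 23.7 CPM in CA1 PNs and 0 to 0.693 CPM in CA3 PNs (LFC 4.95 ± 0.51, adjusted p = 1.0e-07), and Olfm3, an olfactomedin that binds AMPA receptors, had 29.3 to 41.7 CPM against 0 to 10.5 CPM (LFC 2.44 ± 0.32). Neuronal pentraxins, secreted or membrane-bound proteins that cluster AMPA receptors, were split. The pentraxin receptor Nptxr had 268, 319 and 496 CPM in CA1 PNs and 2107, 2331 and 2758 CPM in CA3 PNs (LFC -2.79 ± 0.13, adjusted p = 1.8e-13), and Nptx1 had 68.6, 325 and 367 CPM against 1386, 1674 and 1835 CPM (LFC -2.64 ± 0.30). Nptx2, the pentraxin induced by activity, was higher in CA1 PNs, at 39.8, 54.9 and 133 CPM against 7.88, 17.2 and 26.6 CPM (LFC 1.85 ± 0.27, adjusted p = 0.0002). None of the 5 genes overlapped between populations.

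Of 6 NMDA receptor subunits, 2 were higher in CA1 PNs and 1 in CA3 PNs, with 6 and with 4 mice. Grin2b, which slows the receptor's decay, had 1755, 2469 and 4054 CPM in CA1 PNs and 1044, 1353 and 1982 CPM in CA3 PNs (LFC 0.89 ± 0.11, adjusted p = 2.4e-06), higher in CA1 PNs in 6 of 6 mice with an overlap between mice. Grin2a had 900, 1885 and 2331 CPM against 826, 913 and 996 CPM (LFC 0.95 ± 0.16, adjusted p = 0.00055), and only the CA1 PN library of 17-21 lay within the range of CA3 PNs. The obligatory subunit Grin1 was not called (LFC 0.20 ± 0.11, adjusted p = 0.20). In TPM, Grin1, Grin2b and Grin2a had means of 280 ± 64.6, 225 ± 85.1 and 140 ± 46.2 in CA1 PNs and of 328 ± 123, 134 ± 48.4 and 84.4 ± 29.4 in CA3 PNs (SD, n = 6). Within each population, Grin2b and Grin2a held 34.7% and 21.6% of the summed TPM of the 6 subunits in CA1 PNs, and 24.4% and 15.3% in CA3 PNs. Grin2c was the subunit called higher in CA3 PNs, at 2.77 to 22.1 CPM against 1.19 to 4.63 CPM (LFC -1.40 ± 0.46, adjusted p = 0.034), and it was no longer called without any one of mice 15-145, 15-147, 17-154 or 17-56 (adjusted p up to 0.17), with DESeq2 (0.11) or with every library thinned to the smallest total (0.50).

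Kainate receptor genes leaned to CA3 PNs, with 4 of 7 subunits and partners higher there, 0 in CA1 PNs and a median LFC of -0.79 (5 and 0 in 4 mice). Neto1, the auxiliary subunit of kainate receptors at mossy fiber synapses, had 374, 397 and 435 CPM in CA3 PNs and 11.8, 28.8 and 89.9 CPM in CA1 PNs (LFC -3.56 ± 0.39, adjusted p = 0.0013). Grik5, Grik2 and Neto2 were higher by less (LFC -0.74 ± 0.11, -0.79 ± 0.14 and -0.88 ± 0.17), and like Neto1 they did not overlap. Grik4, the other high-affinity subunit, was not called with 6 mice (LFC -3.29 ± 0.93, adjusted p = 0.067) although all CA3 PN libraries, at 118 to 178 CPM, were above all CA1 PN libraries. In CA1 PNs it had 80.9 CPM in 17-21, 30.7 CPM in 17-154 and 0 to 2.78 CPM in the other 4, and it was called in 4 mice (LFC -6.25 ± 0.29) and on ChP (LFC -3.14 ± 0.71, adjusted p = 0.021). Grik4 was also called without 17-21 alone (adjusted p = 0.024), and with 6 mice without the block (0.020) and with DESeq2 (1.6e-05). In TPM the order of the subunits in CA3 PNs was Grik5 (89.2 ± 28.4), Grik2 (41.0 ± 23.3) and Grik4 (37.1 ± 15.1), the last 2 within their spread of each other. In CA1 PNs Grik5 (46.2 ± 16.1) was above Grik2 (16.2 ± 5.07). Grik4 is not placed in CA1 PNs, where its mean of 4.46 ± 7.14 TPM was set by 17-21 and 17-154, with a median of 0.63 TPM over 6 mice and a mean of 0.395 ± 0.301 TPM in 4 mice.

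**Figure D4:**
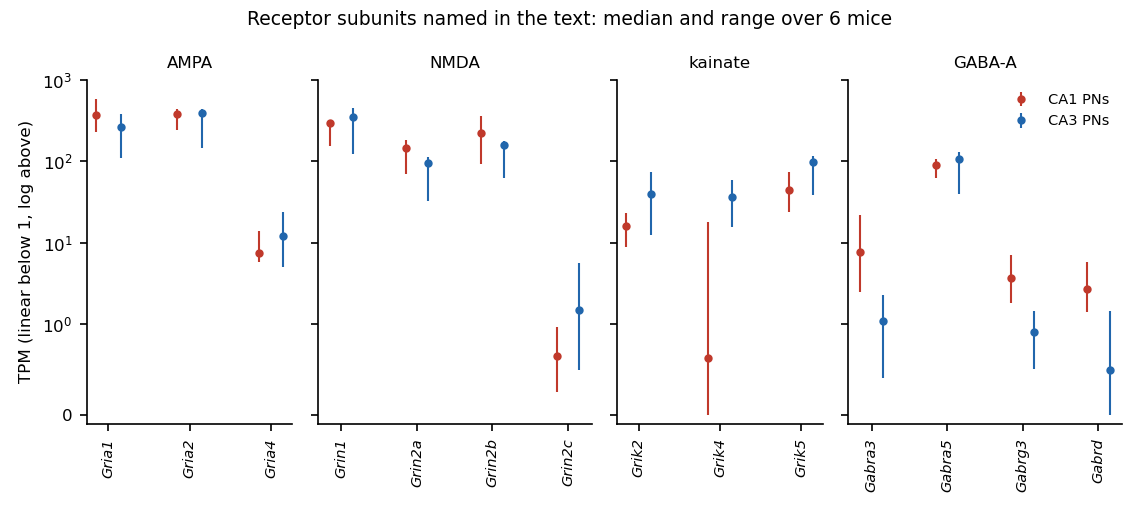
TPM of the AMPA, NMDA, kainate and GABA-A receptor subunits named in the text, per population, with a point at the median and a line over the range of 6 libraries, CA1 PNs in red and CA3 PNs in blue. The axis is logarithmic above 1 TPM and linear below, and genes can be ordered within a population, where Gria1 and Gria2 lie above Gria4, and Gabra5 above Gabra3, Gabrg3 and Gabrd, in both.

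Among metabotropic glutamate receptors, 1 of 5 was higher in CA1 PNs and 2 in CA3 PNs, with 6 and with 4 mice. Grm5, a postsynaptic receptor coupled to Gq, had 533, 584 and 666 CPM in CA1 PNs and 362, 393 and 436 CPM in CA3 PNs (LFC 0.56 ± 0.11, adjusted p = 0.00047). The presynaptic receptor Grm7 had 64.0, 74.0 and 91.0 CPM in CA1 PNs and 132, 146 and 159 CPM in CA3 PNs (LFC -0.98 ± 0.12, adjusted p = 1.9e-06), and neither gene overlapped.

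Inhibitory receptor genes leaned to CA1 PNs. Of 12 GABA-A receptor subunits, 6 were higher in CA1 PNs and 0 in CA3 PNs, with a median LFC of 0.37 (7 and 0 in 4 mice). Gabra3, an alpha subunit, had 6.74, 28.2 and 52.8 CPM in CA1 PNs and 1.03 to 5.08 CPM in CA3 PNs (LFC 3.23 ± 0.34, adjusted p = 1.3e-07). Gabrg3 and Gabrd, the latter a subunit of extrasynaptic receptors, were higher by LFC 2.12 ± 0.24 and 2.47 ± 0.57, and none of these genes overlapped. Gabra5, an alpha subunit of extrasynaptic receptors that is named here outside the rule, was not called (LFC 0.22 ± 0.11, adjusted p = 0.19), and had a mean of 90.2 ± 15.6 TPM in CA1 PNs and 97.1 ± 32.1 TPM in CA3 PNs (SD, n = 6). Of 8 GABA-B receptor and GIRK channel genes, which give slow inhibition, 6 were higher in CA1 PNs and 1 in CA3 PNs (median LFC 0.70), and 7 and 1 in 4 mice. The GIRK subunits Kcnj3 and Kcnj9 had LFCs of 0.98 ± 0.12 and 1.46 ± 0.19, higher in 6 of 6 mice, and the receptor gene Gabbr1 was not called with 6 mice (LFC 0.30 ± 0.12, adjusted p = 0.076). It was called higher in CA1 PNs in 4 mice (LFC 0.43 ± 0.10, adjusted p = 0.00015), without 17-21 alone (0.0023), without the block (0.037) and with limma-voom (0.045).

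Channels that set resting potential and dendritic integration were compared next. Of 12 HCN and leak potassium channel genes, 6 were higher in CA1 PNs and 2 in CA3 PNs (median LFC 0.99), and 4 and 3 in 4 mice (median LFC 1.28). Pex5l (TRIP8b), the subunit that places HCN channels in dendrites, had 80.9, 557 and 677 CPM in CA1 PNs and 17.5, 23.5 and 29.9 CPM in CA3 PNs (LFC 4.21 ± 0.53, adjusted p = 0.0035). The leak channel Kcnk9 (TASK3) had 45.0, 87.9 and 132 CPM against 1.39 to 6.30 CPM (LFC 4.46 ± 0.21, adjusted p = 1.9e-13), and Kcnk2 (TREK1) 42.0 to 197 CPM against 7.62 to 13.5 CPM (LFC 2.88 ± 0.37, and 2.18 ± 0.24 in 4 mice). Kcnk4 (TRAAK), from the same mechanosensitive branch as Kcnk2, went the other way, with 0 to 2.25 CPM in CA1 PNs and 25.9 to 44.1 CPM in CA3 PNs (LFC -4.21 ± 0.35, adjusted p = 3.1e-09). None of the 4 overlapped. Hcn2 was not called with 6 mice (LFC -0.30 ± 0.14, adjusted p = 0.13), but was higher in CA3 PNs in 4 mice (LFC -0.45 ± 0.16, adjusted p = 0.022) and without 17-21 alone (0.046).

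Of 39 voltage-gated potassium channel genes, 8 were higher in CA1 PNs and 9 in CA3 PNs, and 10 and 16 in 4 mice. Beside Kcnh7 and Kcnf1, Kcng1, another silent Kv subunit, had 62.8, 75.4 and 116 CPM in CA3 PNs and 0.926 to 8.99 CPM in CA1 PNs (LFC -4.73 ± 0.25, adjusted p = 1.8e-12, and -5.43 ± 0.35 in 4 mice), and the Shaker subunit Kcna6 had 36.2 to 57.1 CPM against 3.21 to 27.0 CPM (LFC -2.28 ± 0.43, and -3.51 ± 0.32 in 4 mice). Kcnc2 (Kv3.2), better known from interneurons, was higher in CA3 PNs (LFC -1.45 ± 0.14, adjusted p = 2.2e-08). The list of interneuron markers, which includes Kcnc2, was called in both directions. Of 15 calcium channel genes, 4 were called in each direction, and 5 higher in CA1 PNs and 4 in CA3 PNs in 4 mice. The L-type subunit Cacna1c had 273, 326 and 347 CPM in CA3 PNs and 62.0, 88.0 and 258 CPM in CA1 PNs (LFC -1.59 ± 0.34, adjusted p = 0.021), with the highest CA1 PN library that of 17-21, and its adjusted p was 0.061 to 0.063 without mouse 15-145, 17-172 or 17-56. The P/Q-type subunit Cacna1a and the beta subunit Cacnb3 were higher in CA3 PNs in 6 of 6 mice (LFC -0.95 ± 0.13 and -0.94 ± 0.13). Of 12 sodium channel genes 1 was higher in CA1 PNs and 3 in CA3 PNs (3 and 4 in 4 mice), the latter including Fgf13 and Fgf14, which are not pore-forming (LFC -1.09 ± 0.18 and -0.76 ± 0.17), while the pore-forming Scn2a was not called (LFC -0.11 ± 0.11, adjusted p = 0.57). Fgf14 was no longer called with libraries thinned to the smallest total (adjusted p = 0.11).

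Receptors for neuromodulators were compared over 25 tested genes, of which 8 were higher in CA1 PNs and 3 in CA3 PNs (median LFC 0.75), with the same counts and a median of 0.42 in 4 mice. Htr1a, the inhibitory serotonin receptor, had 0, 122 and 157 CPM in CA1 PNs and 2.77 to 12.3 CPM in CA3 PNs (LFC 3.64 ± 0.36, adjusted p = 8.3e-05), with the 0 in mouse 17-21 and no overlap in the other 5. Drd5, a dopamine receptor coupled to Gs, had 6.13, 16.9 and 21.3 CPM against 0 to 1.33 CPM (LFC 4.60 ± 0.51, adjusted p = 3.5e-07), and Chrna4, a nicotinic receptor subunit, 13.0, 23.4 and 48.3 CPM against 1.58 to 9.25 CPM (LFC 2.16 ± 0.32). Both were separate in all mice. Htr4, a serotonin receptor coupled to Gs, was higher in CA1 PNs too (LFC 2.35 ± 0.42), but was not called on ChP (LFC 1.26 ± 0.54, adjusted p = 0.12) or with libraries thinned to the smallest total (adjusted p = 0.094). The muscarinic receptor Chrm3 and the cannabinoid receptor Cnr1 were not called with 6 mice (LFC 0.14 ± 0.14, adjusted p = 0.54, and 0.28 ± 0.15, adjusted p = 0.22), and Chrm3 was called higher in CA1 PNs in 4 (LFC 0.36 ± 0.12, adjusted p = 0.013).

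Of 22 neuropeptide and peptide receptor genes, 6 were higher in CA1 PNs and 4 in CA3 PNs, and 6 and 7 in 4 mice. Penk, the enkephalin precursor, had 1.12, 82.9 and 113 CPM in CA1 PNs and 0 to 3.93 CPM in CA3 PNs (LFC 5.32 ± 0.53, adjusted p = 0.00019, and 6.08 ± 0.30 in 4 mice), and the lowest value was again that of 17-21. The somatostatin receptor Sstr4 had 29.2, 119 and 138 CPM against 6.30 to 27.5 CPM (LFC 2.37 ± 0.29, adjusted p = 0.00024), and the NPY receptor Npy1r 10.7 to 21.4 CPM against 1.27 to 4.63 CPM (LFC 2.46 ± 0.37). Neither overlapped, and Sstr4 was no longer called with libraries thinned to the smallest total (adjusted p = 0.066). Cckbr, the cholecystokinin receptor, went the other way, at 9.45 to 21.0 CPM in CA3 PNs and 0 to 14.6 CPM in CA1 PNs (LFC -2.39 ± 0.65, adjusted p = 0.023, and -4.20 ± 0.70 in 4 mice), and its adjusted p was 0.078 and 0.098 without mouse 15-145 or 17-154.

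Genes of axon guidance were divided by family. Of 29 semaphorins, plexins and neuropilins, 10 were higher in CA3 PNs and 3 in CA1 PNs (median LFC -0.48), and of 21 slits, netrins and their receptors 9 and 1 (median LFC -0.30). In 4 mice these counts were 10 and 4, and 11 and 3. Slit2, a repulsive ligand for Robo receptors, had 214, 242 and 274 CPM in CA3 PNs and 2.14, 9.84 and 14.6 CPM in CA1 PNs (LFC -4.74 ± 0.24, adjusted p = 1.4e-09), whereas its receptor Robo2 was not called (LFC -0.20 ± 0.11, adjusted p = 0.23). Unc5c, a netrin receptor, had 256, 275 and 303 CPM against 42.7, 58.2 and 104 CPM (LFC -2.16 ± 0.14). Sema5a, the relative of Sema5b, had 187, 262 and 390 CPM against 3.00, 7.98 and 50.6 CPM (LFC -4.04 ± 0.46, adjusted p = 0.0019, and -5.16 ± 0.21 in 4 mice), and the semaphorin co-receptor Nrp2 was higher in CA3 PNs by an LFC of -1.78 ± 0.13. None of these 4 overlapped. Among the exceptions was Plxnd1, the receptor of Sema3e, with 4.50, 43.3 and 85.5 CPM in CA1 PNs and 0 to 2.54 CPM in CA3 PNs (LFC 5.03 ± 0.36, adjusted p = 4.0e-10).

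The 17 ephrin and Eph receptor genes were called in both directions, 4 higher in CA1 PNs and 5 in CA3 PNs with 6 mice, and 7 and 5 with 4. The receptor Ephb1 had 93.0, 104 and 144 CPM in CA3 PNs and 1.0 to 10.1 CPM in CA1 PNs (LFC -4.85 ± 0.26, adjusted p = 2.9e-11, and -5.70 ± 0.29 in 4 mice), whereas 2 ligands of EphB receptors were higher in CA1 PNs, Efnb2 at 6.74, 46.8 and 51.9 CPM against 3.49 to 6.64 CPM (LFC 2.84 ± 0.27) and Efnb3 at 8.99, 47.4 and 62.0 CPM against 5.09 to 14.2 CPM (LFC 2.42 ± 0.27). Ephb1 was separate in all mice, and in Efnb3 only the library of 17-21 lay among those of CA3 PNs. Of 10 teneurins, latrophilins and FLRTs, which bind each other across synapses, 5 were higher in CA1 PNs and 1 in CA3 PNs (median LFC 1.32), and 7 and 3 in 4 mice. Tenm3 had 15.7, 743 and 941 CPM in CA1 PNs and 15.9, 20.6 and 25.2 CPM in CA3 PNs (LFC 4.72 ± 0.75, adjusted p = 0.0093, and 5.13 ± 0.14 in 4 mice), with the lowest library that of 17-21. Its partner Adgrl2 (latrophilin 2) had 4.50, 52.8 and 123 CPM against 0 to 4.16 CPM (LFC 4.77 ± 0.72, adjusted p = 0.0046, and 5.56 ± 0.30 in 4 mice), and Flrt1, a latrophilin ligand, was higher too (LFC 2.99 ± 0.25). Adgrl1 was not called with 6 mice (LFC -0.28 ± 0.11, adjusted p = 0.081), but was higher in CA3 PNs in 4 mice (LFC -0.43 ± 0.10, adjusted p = 0.00022) and without 17-21 alone (0.0027).

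Of 25 cadherins and protocadherins, 8 were higher in CA1 PNs and 5 in CA3 PNs with 6 mice, and 5 and 8 with 4, the opposite balance. The type II cadherins Cdh9 and Cdh6 were opposed, Cdh9 at 83.8, 114 and 129 CPM in CA3 PNs and 0.926 to 9.54 CPM in CA1 PNs (LFC -4.48 ± 0.23, adjusted p = 8.0e-13, and -5.06 ± 0.28 in 4 mice), and Cdh6 at 0 to 1.54 CPM in CA3 PNs and 4.50 to 34.4 CPM in CA1 PNs (LFC 4.53 ± 0.52, adjusted p = 5.2e-07). Pcdh8 (arcadlin), an activity-regulated protocadherin, was higher in CA3 PNs (LFC -3.18 ± 0.19). None of the 3 overlapped. Among 39 synaptic adhesion genes 11 were higher in CA1 PNs and 7 in CA3 PNs, and 13 and 12 in 4 mice. Beside Nectin3 in CA3 PNs (LFC -3.57 ± 0.18, adjusted p = 1.5e-12), they included Gpc4, a glypican, in CA1 PNs (LFC 2.20 ± 0.37), and the calsyntenin Clstn2, at 475 to 559 CPM in CA3 PNs and 129 to 422 CPM in CA1 PNs (LFC -1.49 ± 0.28, adjusted p = 0.0085). Of 27 extracellular matrix genes, 8 were higher in CA1 PNs and 5 in CA3 PNs, and 10 and 6 in 4 mice. The median LFC of these genes had no stable sign, at -0.03 with 6 mice (the same with Col12a1 at its bound), -0.265 with 4, 0.165 on ChP and 0.155 with libraries thinned to the smallest total. The collagen gene Col12a1 was at 0 in every CA1 PN library and at 11.8 to 29.9 CPM in CA3 PNs, at least 37-fold higher there against the floor of 3 counts. Vcan, a chondroitin sulfate proteoglycan also listed as a marker of oligodendrocyte precursors, was higher in CA1 PNs (LFC 2.75 ± 0.39, adjusted p = 7.9e-05, and 1.96 ± 0.41 in 4 mice), while the other 7 tested markers of these precursors were not called with 6 mice and 1 of them was higher in CA1 PNs with 4.

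Calcium and cyclic AMP signaling genes leaned in opposite directions. Of 24 PKC, CaM kinase and calcineurin genes, 9 were higher in CA3 PNs and 2 in CA1 PNs (median LFC -0.13), and 12 and 5 in 4 mice. Beside Prkcd, Camk1 had 35.0, 57.2 and 64.7 CPM in CA3 PNs and 2.25 to 10.7 CPM in CA1 PNs (LFC -2.95 ± 0.24, adjusted p = 1.8e-09), and Camk1d had 745, 794 and 876 CPM against 298, 346 and 436 CPM (LFC -1.18 ± 0.12). The abundant kinase of the postsynaptic density, Camk2a, had a small LFC, at 2576 to 2822 CPM in CA3 PNs and 1759 to 2595 CPM in CA1 PNs (LFC -0.41 ± 0.11, adjusted p = 0.0092, and 0.055 and 0.066 without 15-147 or 17-172), and Camk2b was not called (LFC 0.28 ± 0.12, adjusted p = 0.085, and 0.040 and 0.041 with limma-voom and library totals). Of 23 adenylyl cyclases, phosphodiesterases and PKA subunits, 8 were higher in CA1 PNs and 1 in CA3 PNs (median LFC 0.52), and 11 and 4 in 4 mice. Adcy1, the cyclase stimulated by calcium and calmodulin, had 683, 869 and 2512 CPM in CA1 PNs and 100.0, 123 and 172 CPM in CA3 PNs (LFC 3.04 ± 0.22, adjusted p = 5.3e-06), and Adcy6 17.0 to 49.2 CPM against 7.86 to 16.6 CPM (LFC 1.46 ± 0.22). The highest Adcy1 value was that of 17-21, and the LFC was 2.67 ± 0.11 in 4 mice. DGCs had a mean of 2715 ± 151 CPM of Adcy1 (SD, n = 6).

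Of 16 RGS genes, which shorten G protein signaling, 1 was higher in CA1 PNs and 3 in CA3 PNs, and 2 and 3 in 4 mice. Rgs12 had 42.5, 65.2 and 91.5 CPM in CA3 PNs and 3.21 to 14.2 CPM in CA1 PNs (LFC -3.27 ± 0.24, adjusted p = 3.9e-10). Rgs14, a CA2 marker, had 66.7, 96.2 and 689 CPM in CA1 PNs and 5.54 to 17.5 CPM in CA3 PNs (LFC 3.65 ± 0.73, adjusted p = 0.022). Its highest values were 689 CPM in 17-21 and 232 CPM in 17-154, and in the 4 other mice, at 66.7 to 101 CPM, it was still above CA3 PNs (LFC 2.56 ± 0.21). Without mouse 15-145, 17-154 or 17-56 its adjusted p was 0.060, 0.075 and 0.064, and with libraries thinned to the smallest total 0.051. Of 21 calcium-binding and calmodulin-binding proteins, 4 were higher in CA1 PNs and 5 in CA3 PNs (5 and 11 in 4 mice), among the latter the neuronal calcium sensor Hpcal4, at 625, 697 and 788 CPM against 189, 244 and 281 CPM (LFC -1.54 ± 0.12, adjusted p = 1.3e-09), and Necab3, at 20.8 to 30.1 CPM against 0 to 2.14 CPM. Calm3, a calmodulin gene, was not called with 6 mice (LFC -0.26 ± 0.10, adjusted p = 0.084), but was higher in CA3 PNs in 4 mice (LFC -0.31 ± 0.09, adjusted p = 0.0042), without 17-21 alone (0.017) and with limma-voom (0.041).

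Presynaptic genes leaned to CA3 PNs. Of 41 synaptotagmins, complexins and other release proteins, 19 were higher in CA3 PNs and 5 in CA1 PNs, with a median LFC of -0.52 against 0.02 over all genes (23 and 7 with a median of -0.63 in 4 mice). Rph3a (rabphilin), a Rab3 effector, had 759, 873 and 983 CPM in CA3 PNs and 20.1, 28.1 and 139 CPM in CA1 PNs (LFC -4.40 ± 0.44, adjusted p = 0.0011, and -5.10 ± 0.14 in 4 mice), and Doc2a had 13.4, 23.9 and 38.8 CPM against 0.681 to 7.0 CPM (LFC -3.05 ± 0.37, and -2.38 ± 0.38 in 4 mice). Doc2a and Doc2b, calcium sensors of the same family, were thus opposed. Syt17 was higher in CA1 PNs, at 1.12 to 22.0 CPM against 0 to 1.11 CPM (LFC 4.09 ± 0.53), with a smaller LFC of 1.93 ± 0.36 on ChP. General parts of the release machinery, Vamp2 and Unc13a, were not called with 6 mice (LFC -0.11 ± 0.12 and 0.15 ± 0.11), and Vamp2 was called higher in CA3 PNs in 4 (LFC -0.30 ± 0.10, adjusted p = 0.014). The vesicular glutamate transporter Slc17a7 (VGLUT1) was higher in CA3 PNs (LFC -0.64 ± 0.13, adjusted p = 0.00092) in 5 of 6 mice, the exception being 17-21. Nrn1 (neuritin), an activity-regulated gene listed with the excitatory neuron markers, was higher there in 6 of 6 (LFC -1.35 ± 0.12).

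Among 14 tested transmitter and zinc transporters, 3 were higher in CA1 PNs and 4 in CA3 PNs, and 3 and 5 in 4 mice. Slc1a2 (GLT-1), the main glutamate transporter of astrocytes, which CA3 neurons also transcribe, had 1648, 2003 and 2446 CPM in CA3 PNs and 294, 411 and 491 CPM in CA1 PNs (LFC -2.35 ± 0.11, adjusted p = 3.7e-13), with no overlap. The astrocyte list, which includes Slc1a2, had a median LFC of -0.38, with Gfap, Aqp4 and Aldoc called at -1.45 ± 0.28, -0.77 ± 0.23 and -0.38 ± 0.13, and the mean of each of its tested markers was above 0 in both populations. The part of astrocyte RNA in the level of Slc1a2 was not tested. Aqp4 was no longer called in 4 mice (adjusted p = 0.055) or without any one of 15-147, 17-154 and 17-172, and Aldoc without any one mouse but 17-21. With libraries thinned to the smallest total, Gfap (LFC -0.82, adjusted p = 0.37), Aqp4 and Aldoc were not called and 1 of the 11 markers was, and with DESeq2 2 of 11 were. Slc1a1 (EAAC1), the neuronal glutamate transporter, was higher in CA1 PNs in 6 of 6 mice (LFC 0.86 ± 0.12, adjusted p = 9.1e-06), as was the taurine transporter Slc6a6 (LFC 0.86 ± 0.12).

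Immediate early genes, which are induced by neuronal activity, were called higher in CA1 PNs for 6 of 24 and in CA3 PNs for 2 (median LFC 0.31), and in 4 mice for 12 and 3 (median LFC 0.72). Nr4a1, whose promoter is shown above, had 67.4, 145 and 348 CPM in CA1 PNs and 24.8, 32.9 and 53.5 CPM in CA3 PNs (LFC 2.15 ± 0.26, adjusted p = 0.00029). Dusp5, a nuclear ERK phosphatase, had 34.3, 45.6 and 166 CPM against 9.52, 13.3 and 20.8 CPM (LFC 2.03 ± 0.20, adjusted p = 6.2e-08), and neither gene overlapped. Egr1 was not called with 6 mice, at 147, 456 and 840 CPM in CA1 PNs and 145, 191 and 217 CPM in CA3 PNs (LFC 1.22 ± 0.43, adjusted p = 0.12), and was called in 4 mice (LFC 1.78 ± 0.12) and on ChP (LFC 1.27 ± 0.26, adjusted p = 0.012). Homer1 showed the same (LFC 0.72 ± 0.27, adjusted p = 0.12, against 1.11 ± 0.11 in 4 mice and 0.87 ± 0.10 on ChP). Both genes were called with 6 mice without the block (adjusted p = 0.022 for Egr1 and 0.042 for Homer1) and with DESeq2 (0.022 and 0.0088). Neither was called with limma-voom. For both genes the lowest CA1 PN library was that of 17-21.

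Of 31 growth factor and receptor genes, 3 were higher in CA1 PNs and 6 in CA3 PNs, and 3 and 12 in 4 mice. Igfbp4, an IGF-binding protein, had 150, 178 and 221 CPM in CA1 PNs and 2.77, 10.4 and 17.3 CPM in CA3 PNs (LFC 4.18 ± 0.26, adjusted p = 2.8e-07), and was separate in all mice. The neurotrophin receptor Ntrk3 was not called (LFC 0.09 ± 0.11, adjusted p = 0.66). Of 18 Wnt pathway genes 4 were higher in CA1 PNs, Ror1 among them, and 3 in CA3 PNs (4 and 5 in 4 mice), including the receptor Fzd7, which had 14.6 to 25.2 CPM in CA3 PNs and 2 counts in CA1 PNs (pooled ratio 59.7, interval 16.4 to 496). Lists of general cell functions can be read against the 10.4% of all genes called in each direction with 6 mice, and the 12.4% and 14.0% called higher in CA1 and CA3 PNs with 4. Of 78 cytosolic ribosomal protein genes 7 were higher in CA1 PNs and 1 in CA3 PNs (10 and 1 in 4 mice), among the former Rpl32 and Rps12 (LFC 1.02 ± 0.21 and 0.99 ± 0.19), whose counts are uncertain because of processed pseudogenes, and Rps12 was no longer called with libraries thinned to the smallest total (adjusted p = 0.095). Of 78 nuclear OXPHOS subunits 1 was called with 6 mice, Ndufa11 (LFC -0.59 ± 0.16, adjusted p = 0.010, and 0.053 without mouse 15-147 and 0.062 with thinning), and with 4 mice 9 were higher in CA3 PNs and 1 in CA1 PNs. Of 7 tested mitochondrially encoded subunits 0 were called with 6 mice and 5, all higher in CA3 PNs, with 4.

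With edgeR and the mouse as a block, some genes were called only without 17-21 and 17-154, whose CA1 PN libraries held CA2 markers. In 4 mice 473 genes were called higher in CA1 PNs and 627 higher in CA3 PNs that were not called with all 6 mice. They were chosen by the absence of these libraries, so the values of 17-21 and 17-154 below are a description. By the rule for named genes, the largest in favor of CA3 PNs were Ccdc3, Cpne4, Grik4, Mctp1, Ccbe1 and Gm49601. Mctp1, a calcium-binding membrane protein, had 127, 147 and 174 CPM in CA3 PNs and 0, 3.89 and 199 CPM in CA1 PNs (LFC -2.82 ± 1.08, adjusted p = 0.15, with 6 mice and -5.89 ± 0.28 with 4). Ccdc3, a secreted protein also listed as a CA2 marker, had 21.5 to 48.8 CPM in CA3 PNs, 209 CPM in 17-21, 51.8 CPM in 17-154 and 0 in the other 4 CA1 PN libraries (LFC -1.27 ± 1.47 with 6 mice and -9.12 ± 0.67 with 4). With every CA1 PN library at 0 in 4 mice, the latter LFC is no measured fold. Spock1, a proteoglycan of the extracellular matrix, had 499, 581 and 649 CPM in CA3 PNs and 12, 22.8 and 797 CPM in CA1 PNs (LFC -3.25 ± 1.14 with 6 mice and -5.00 ± 0.15 with 4). In favor of CA1 PNs they were Plekhg1, Gm20605, Hs6st2, Asap2, Tyro3 and Gm19410. Tyro3, a receptor tyrosine kinase, had 6.74, 138 and 175 CPM in CA1 PNs and 22.1, 29.8 and 32.9 CPM in CA3 PNs (LFC 1.69 ± 0.58 with 6 mice and 2.33 ± 0.16 with 4), and the ARF GTPase-activating protein Asap2 12.4, 132 and 151 CPM against 15.4 to 47.3 CPM (LFC 1.88 ± 0.55 and 2.52 ± 0.17). In Mctp1, Ccdc3 and Spock1 the highest CA1 PN library was that of 17-21, and in Tyro3 and Asap2 it was the lowest. With DESeq2 and all 6 mice Cpne4, Mctp1, Ccdc3, Spock1 and Asap2 were called (adjusted p = 3.4e-05, 0.00018, 0.0046, 6.4e-05 and 0.0092), and Tyro3 was not. Tyro3 was called with 6 mice without the block (0.021) and with limma-voom (0.039), where Mctp1, Ccdc3 and Spock1 were not.

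**Figure D5:**
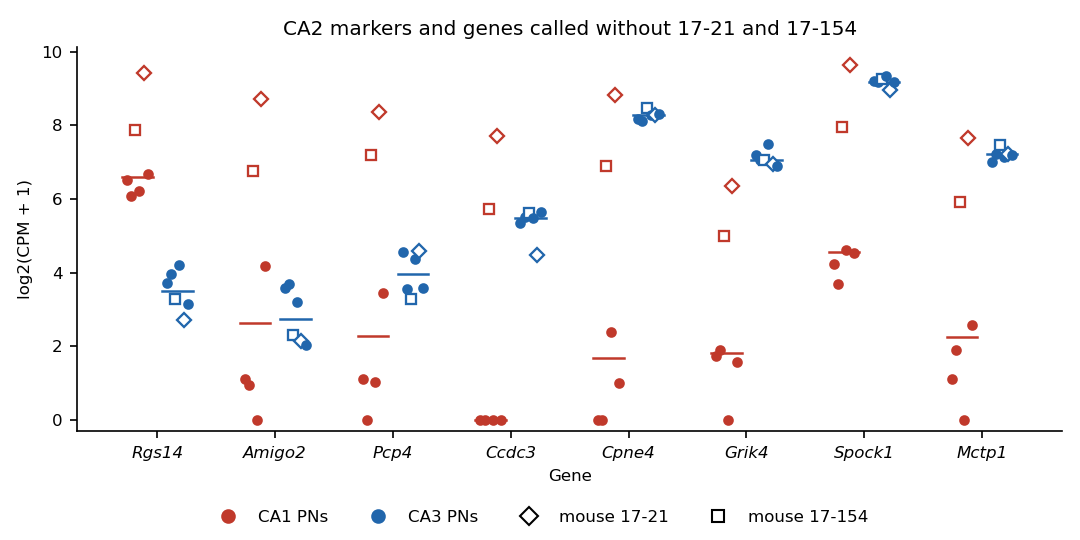
CA2 markers (Rgs14, Amigo2, Pcp4 and Ccdc3) and genes called by edgeR with the block in 4 mice but not in 6 (Cpne4, Grik4, Spock1 and Mctp1) in each of the 12 libraries, as log2(CPM + 1), with a line at the median of 6 libraries. The CA1 PN libraries of 17-21 (open diamonds) and 17-154 (open squares) lie above the other 4 CA1 PN libraries for every gene shown.

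The genes called with 6 mice were also placed against DGC libraries of the same mice. Of the 1467 genes higher in CA1 PNs, the DGC mean was nearer to that of CA1 PNs for 775 (52.8%), below both populations for 398, above both for 470 and between them for 599. Of the 1465 genes higher in CA3 PNs, it was nearer to CA1 PNs for 1010 (68.9%), below both for 641, above both for 216 and between them for 608. Examples from each side are Adcy1 and Bcl11b, higher in CA1 PNs with high levels in DGCs, and Ttn, Prkcd and Slit2, higher in CA3 PNs with means of 2.77, 0.946 and 17.4 CPM in DGCs. Genes of the other kind include Wfs1 and Kcnh7, higher in CA1 PNs with medians of 13.3 and 22.1 CPM in DGCs. Sema5a and Pcdh8, higher in CA3 PNs, had medians of 886 and 247 CPM in DGCs.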

How the data were processed

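The authors trimmed reads with Trimmomatic (0.39) where needed, aligned them with STAR and estimated gene levels with RSEM, per the methods and the processing notes in the labels. The deposited tables hold the RSEM expected counts per gene and library (unit expected counts, not normalized) and TPM (transcript levels scaled per length and to the same sum in each library). The methods name GRCm39, the processing notes name mm10 as well, and no coordinates of the deposited tables are printed. Libraries came from a stranded total RNA kit for small inputs. Of the expected counts above 0, 2.786% were not whole, and all were rounded before testing. Each of the 57010 gene IDs was used as given, with a symbol for 56310 of them, and 0 columns of samples were left without a label.

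Genes with over 1 CPM in at least 6 of 12 libraries entered a fit by edgeR (version 4.0.16 in R version 4.3.3, with TMM scaling, a robust quasi-likelihood test, mouse as a block and population as the term), with Benjamini-Hochberg adjustment over all genes tested. The SE is the LFC divided by the square root of F. Pairing came from the mouse ID in the labels. The deviations of CA1 and CA3 PN libraries of the same mouse correlated at r = 0.055 to 0.087 over 9499 genes, and the mouse's own library was the best match in 4 of 6. The same fit was made on ChP, and the difference between diets with a term of population by diet. On simulated data with 100 genes changed by an LFC of 2, the fit of 12 libraries recovered 79% and that of 8 libraries 56%. At an LFC of 1 it recovered 29% and 17%. The simulation set the same variation for both fits and changed few of the genes. The data had a biological coefficient of variation of 0.202 with 6 mice and 0.136 with 4. These shares are thus not the power of either fit in these data. Alternatives were no block, DESeq2 1.42.0, limma-voom (limma 3.58.1), other size factors and filters, thinning, and leaving out mice. Those for 4 mice, and leaving out the mice with CA2 markers on ChP, were chosen after seeing the data. Libraries are 1 capture per population and mouse, and counting intervals cover counting error only.

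Members and gene lists were chosen with earlier results of these data known. Genes were named by rule: 7 markers; in each direction the 10 protein-coding genes of largest LFC called with 6 mice, with a mean of at least 20 CPM in the higher population and the same direction in 5 of 6 mice; in each direction the 6 of largest LFC called in 4 mice only; and per list up to 4 called genes of largest LFC and 2 uncalled of highest CPM. Promoters are from RefSeq (GRCm38.p6). Some genes that the rule names are not reported here.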

Additional observations from a re-analysis of the deposited data

Results flagged for a closer look

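In 7 of 54 groups of libraries looked at, 1 library stood apart from the rest by its gap over the range, a rule that chance meets in about 1 of 20 groups. The library labelled CA1 of mouse 17-21 had a mean log2 CPM of 2.59 over CA1 markers, with 7.87 CPM of Mpped1 and 450 CPM of Cpne4. In the CA3 PN library of mouse 17-172, Wfs1 had 39.6 CPM, the highest of 6, and interneuron markers a mean log2 CPM of 4.45, the lowest of 6. The CA1 PN library of mouse 15-147 had the highest mean log2 CPM over dentate granule markers, 2.33. On ChP, the CA1 PN library of mouse 15-336 had a mean log2 CPM of 4.46 over CA1 markers, the lowest of 7.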

How the results depend on the processing

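Of the 2932 genes called with 6 mice, the number was 3111 without the replicate block, 2253 with DESeq2, 3091 with limma-voom and between 2473 and 3078 with other filters and size factors. It was 1527 with every library thinned to the smallest total, and between 2212 and 3697 without 1 mouse, the highest without 17-21. In 4 mice the 3712 calls became 3645 without the block, 3760 with library totals, 2324 with DESeq2 and 2770 to 3363 without 1 mouse. On ChP the 3324 calls became 3159 without the block and 2498 with DESeq2. For the difference between diets, 0 genes were called without the block, with library totals or without 17-21 and 17-154 (unadjusted p under 0.05 in 499, 441 and 668), and 16 without all 5 mice with CA2 markers in their CA1 PN libraries. The LFC of Amigo2 was -1.33 in 4 mice against 2.15 with 6. That of Pcp4 was -2.50 in 4 mice, where it was called higher in CA3 PNs (adjusted p = 1.5e-06), against 1.07 with 6. It was -1.30 with DESeq2 (adjusted p = 0.61) and -0.10 to 1.72 without 1 mouse (the lowest without 17-154). The LFC of Ccdc3 was 0.072 without the block, -6.20 with DESeq2 and -9.12 in 4 mice against -1.27. The cause was not tested. Depth limits genes near 1 CPM, which was about 1 count in the shallower libraries.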
